A study of Homo sapiens with 9 samples.

Results

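The 10 genes described here encode proteins that build the mitotic chromosome and the spindle and that divide the cell after anaphase: ANLN, ECT2, RACGAP1, PRC1, CIT, CEP55, NUSAP1, ASPM, TOP2A and MKI67. They were taken by symbol, as 10 of the 37201 probe sets with 1 named gene on the array, and each gene had 1 probe set. The RNA came from HUCCT-1, an established human cholangiocarcinoma cell line, in which the transcriptional co-activators YAP and TAZ were silenced together. The 3 groups, of 3 arrays each, were cells given scrambled siRNA (NTC), cells given the siRNAs YAP1 and TAZ2 (combi-1) and cells given the siRNAs YAP2 and TAZ3 (combi-2), at 40 nM of siRNA in total for the combinations. RNA of all groups was taken 24 h after transfection. In these names the digits number siRNAs, whereas YAP1 and WWTR1 below are the genes of YAP and TAZ. For the arrays the paper's methods name only the pair of combi-1, and they list no TAZ siRNA numbered 3. The pair of combi-2 is thus known here from the labels alone. The question was which transcripts change when YAP and TAZ are silenced together, with a second pair of siRNAs against the same genes set beside the first. No array had YAP or TAZ silenced alone, so dependence on both cannot be told apart from dependence on either. Silencing was transient, in 1 cell line, and the labels do not say whether the 3 arrays of a group came from separate cultures, so the spread that the p-values rest on is that between these arrays and may be technical.

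YAP and TAZ have no DNA-binding domain of their own and act mainly through TEAD transcription factors, and in the bile duct as in other epithelia they are known for driving growth. Late in the cell cycle, topoisomerase II and condensins shape the chromosomes, motors and microtubule-binding proteins form the spindle, and after anaphase PRC1 bundles the central spindle, where RACGAP1 and its partner kinesin bring ECT2, the exchange factor that switches on RhoA. RhoA then assembles the contractile ring, which anillin (ANLN) ties to the membrane and the septins, and citron kinase (CIT) and CEP55 organise the midbody until the ESCRT machinery cuts the bridge. Such genes are switched on together in G2 and mitosis, and a promoter element known for this timing in human cells is the cell cycle genes homology region (CHR), read by the MuvB complex with B-MYB and FOXM1 or, in resting cells, as part of DREAM, often near CCAAT boxes bound by NF-Y.

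The promoters of the 10 genes were read for these elements because the members are known as cell cycle genes, and the stretches that hold a match are shown here. RefSeq promoter sequences (build GRCh38.p14, 250 bases before to 50 after each annotated start) were given for 9 of the 10 genes, the entry for RACGAP1 being missing, and ECT2 had 2 starts. The CHR was searched as TTTGAA or its reverse complement TTCAAA, and the CCAAT box as CCAAT or ATTGG. Capitals mark those matches within each stretch shown. Other matches lie outside the stretches, among them every CCAAT match of NUSAP1, a further CHR match of CEP55 and of CIT, and those at the second start of ECT2. ANLN is shown at chr7:36389742-36389861 on the + strand, PRC1 at chr15:90994536-90994655 on the - strand, CEP55 at chr10:93496492-93496611 on the + strand, ASPM at chr1:197146670-197146789 on the - strand, MKI67 at chr10:128126424-128126543 on the - strand and ECT2 at chr3:172750606-172750725 on the + strand. These 6 stretches run from 120 bases before the start to the last base before it. TOP2A is shown from base -200 to -81, at chr17:40417977-40418096 on the - strand, and CIT from base -220 to -101, at chr12:119877421-119877540 on the - strand. For NUSAP1 the 30 bases from -5 to 25 are shown, at chr15:41332876-41332905 on the + strand. All are written 5′ to 3′ in the direction of transcription.
ANLN: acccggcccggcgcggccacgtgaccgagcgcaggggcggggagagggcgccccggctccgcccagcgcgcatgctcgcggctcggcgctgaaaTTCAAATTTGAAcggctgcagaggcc
PRC1: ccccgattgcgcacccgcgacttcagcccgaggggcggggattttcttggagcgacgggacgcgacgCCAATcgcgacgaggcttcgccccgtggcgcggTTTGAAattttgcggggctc
CEP55: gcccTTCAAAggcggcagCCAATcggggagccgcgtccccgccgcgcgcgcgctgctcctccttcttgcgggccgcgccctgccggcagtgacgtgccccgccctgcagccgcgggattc
ASPM: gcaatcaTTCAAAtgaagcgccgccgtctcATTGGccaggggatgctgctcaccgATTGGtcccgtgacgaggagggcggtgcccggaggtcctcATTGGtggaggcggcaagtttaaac
MKI67: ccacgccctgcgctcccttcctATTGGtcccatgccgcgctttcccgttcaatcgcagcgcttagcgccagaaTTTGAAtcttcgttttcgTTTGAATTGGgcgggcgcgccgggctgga
ECT2: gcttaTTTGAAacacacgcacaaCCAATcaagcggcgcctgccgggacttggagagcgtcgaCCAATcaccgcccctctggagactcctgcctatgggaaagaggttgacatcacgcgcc
TOP2A: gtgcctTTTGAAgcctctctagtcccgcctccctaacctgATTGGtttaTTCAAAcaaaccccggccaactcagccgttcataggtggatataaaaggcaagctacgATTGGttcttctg
CIT: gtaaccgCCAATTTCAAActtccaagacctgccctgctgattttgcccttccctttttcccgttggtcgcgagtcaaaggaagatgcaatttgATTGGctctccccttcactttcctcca
NUSAP1: taagagtggcgccagggaTTTGAAccgcgc

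A CHR match lay in all 10 promoters of the 9 genes with an entry, against 15.2% of the 35116 promoters in the table and 12.4% of the 22199 promoters of protein-coding genes. ANLN held both orientations back to back at bases -26 to -15, and PRC1 had its match at bases -20 to -15. In MKI67 there were matches at bases -47 to -42 and -29 to -24, the latter sharing its last base with a CCAAT match on the other strand, the only overlap between different elements. NUSAP1 had its match after the start, at bases 14 to 19. At least 2 CHR matches stood in 7 of the 10 promoters, counting both starts of ECT2, against 2.27% of all promoters. A CCAAT match lay in 8 of the 10 promoters, against 34.6% of all promoters. Counted by gene these were 8 of the 9, all but ANLN. Both elements stood together in 8 of the 10 promoters against 5.9%. The core of the TEAD element, CATTCC or GGAATG, was found in 1 of the 10 promoters, the second start of ECT2, against 14% of all promoters. A match is a string of letters and not a measured binding site, the window is short, and these counts describe genes picked as cell cycle genes.

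**Figure D1:**
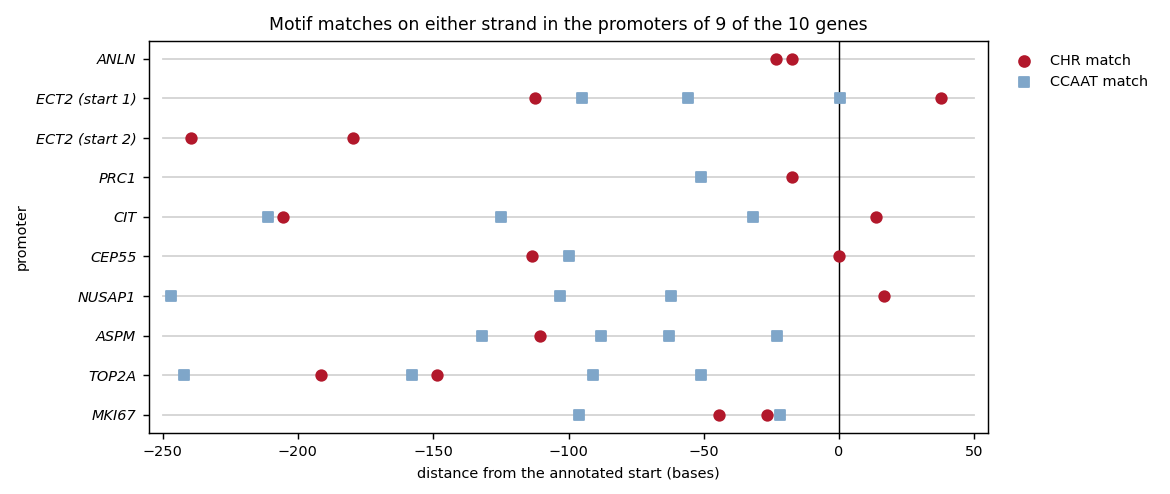
Positions of CHR matches (red circles) and CCAAT matches (blue squares) on either strand, by distance in bases from the annotated start (black line), in the 10 promoters of 9 genes. Every promoter holds a CHR match, in NUSAP1 only after the start, and ANLN and the second start of ECT2 hold no CCAAT match.

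Both siRNA pairs lowered their targets. The log2 signal of YAP1 lay between 9.06 and 9.15 on the NTC arrays and between 6.73 and 6.97 on the 6 silenced arrays, and that of WWTR1 between 8.30 and 8.41 and between 6.95 and 7.06. YAP1 fell to 21.5% of its NTC level with combi-1 and 21.1% with combi-2 (adjusted p = 1.56e-05 and 1.41e-05 from limma), and WWTR1 to 39.4% and 38.2%. Between the combinations YAP1 differed by -0.03 on the log2 scale (95% interval -0.19 to 0.14) and WWTR1 by -0.04 (-0.17 to 0.08). The 6 measured marker genes of biliary epithelium (4 keratins, EPCAM and SOX9) all had a mean log2 signal above the array medians of 5.83 to 5.84. Of the markers of hepatocytes, leukocytes, fibroblasts and endothelium, 2 of 4, 1 of 4, 2 of 4 and 2 of 3 were above those medians. No marker of any of these lists was called with combi-1 or combi-2 against NTC. The mean log2 value of the biliary genes was 10.0 on the NTC arrays, 10.0 to 10.1 with combi-1 and 9.91 to 10.1 with combi-2, and the ranges of the hepatocyte and fibroblast lists also overlapped between NTC and each combination. The leukocyte list ran from 5.27 to 5.30 with NTC, 5.24 to 5.29 with combi-1 and, without overlap with NTC, from 5.30 to 5.43 with combi-2. The endothelium list ran from 5.56 to 5.59 with NTC, 5.55 to 5.62 with combi-2 and, without overlap with NTC, from 5.61 to 5.62 with combi-1, and the part of these shifts in the results below was not tested. NTC replicate 1 is stored with more digits (29641 distinct values against 7528 on each other array), and rounding all arrays alike left the counts of calls below as they were.

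With combi-1 the signal of all 10 genes was below that of NTC without overlap between the arrays, and 7 of them fell at an adjusted p under 0.05: ANLN, PRC1, CIT, CEP55, NUSAP1, ASPM and TOP2A. TOP2A, which untangles sister chromatids, had the lowest level relative to NTC (60.2%), and ECT2 the highest (86.0%). The median log2 difference of the 10 genes was -0.51, where that of all genes tested was 0.02. Of all 37201 genes tested, 0.833% were called lower, 10.1% were lower without overlap and 45.3% had a mean below NTC. Values are differences in log2 signal from limma, fitted on all 9 arrays as 3 group means, with p-values adjusted by Benjamini-Hochberg over all genes tested. In such RNA of a whole culture, fewer cells in G2 and mitosis and less RNA per cell cannot be told apart.

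The genes that shape the chromosome and mark the dividing cell came out on both sides of the threshold. TOP2A had log2 signals of 10.20, 10.13 and 10.08 with NTC, 9.46, 9.47 and 9.29 with combi-1 and 9.77, 9.70 and 9.97 with combi-2. The 3 groups did not overlap, and combi-2 stood between the other two. TOP2A fell by 0.73 with combi-1 (standard error 0.085, adjusted p = 0.00456), while with combi-2 its difference of -0.32 did not pass (adjusted p = 0.166). MKI67 encodes Ki-67, the coat of the mitotic chromosome surface and the common marker of cycling cells. Its signals were 10.74, 10.74 and 10.80 with NTC, 10.46, 10.49 and 10.30 with combi-1 and 10.67, 10.55 and 10.54 with combi-2. Again the groups did not overlap, but the differences of -0.34 with combi-1 (adjusted p = 0.058) and -0.17 with combi-2 (adjusted p = 0.339) missed the threshold.

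Among the spindle genes, NUSAP1 encodes a protein that binds microtubules near the chromosomes. It read 9.23, 9.16 and 9.03 with NTC, 8.71, 8.72 and 8.45 with combi-1 and 8.85, 8.78 and 8.97 with combi-2. ASPM, which holds microtubule minus ends at the spindle poles and is mutated in human microcephaly, read 8.28, 8.12 and 8.09 with NTC, 7.67, 7.67 and 7.40 with combi-1 and 7.85, 7.77 and 8.06 with combi-2. In both genes replicate 3 was the lowest of the combi-1 arrays and the highest of the combi-2 arrays, and for ASPM that combi-2 array lay only just under the lowest NTC array. NUSAP1 fell by 0.51 with combi-1 (standard error 0.092, adjusted p = 0.036) and ASPM by 0.58 (standard error 0.10, adjusted p = 0.0336). With combi-2 both stood at -0.27 (adjusted p = 0.264 and 0.319).

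PRC1, the bundler of antiparallel microtubules in the central spindle, was the 1 gene of the 10 that passed with both combinations. Its log2 signals were 9.13, 9.07 and 9.04 with NTC, 8.58, 8.61 and 8.41 with combi-1 and 8.71, 8.68 and 8.74 with combi-2. The combi-2 arrays were within a narrow range, below every NTC array and above every combi-1 array. PRC1 fell by 0.54 with combi-1 (standard error 0.064, adjusted p = 0.005) and by 0.37 with combi-2 (standard error 0.064, adjusted p = 0.0476).

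Neither gene of the RhoA switch passed the test. ECT2 read 9.35, 9.29 and 9.28 with NTC, 9.04, 9.16 and 9.07 with combi-1 and 9.09, 9.12 and 9.42 with combi-2. Combi-2 replicate 3 was the highest of all 9 arrays for ECT2, while the other 2 combi-2 arrays lay within the combi-1 range. The differences of ECT2 were -0.22 with combi-1 (adjusted p = 0.292) and -0.10 with combi-2 (adjusted p = 0.666, 95% interval -0.31 to 0.10). Without combi-2 replicate 3 the latter was -0.21, and without combi-2 replicate 1 or 2 it was -0.04 or -0.06. RACGAP1, the GTPase-activating subunit of centralspindlin that recruits ECT2, read 9.01, 8.88 and 8.97 with NTC, 8.68, 8.58 and 8.36 with combi-1 and 8.76, 8.80 and 8.78 with combi-2. Its combi-1 arrays were spread widely and its combi-2 arrays were close together, with no overlap of the groups. The difference of -0.41 with combi-1 missed the threshold (adjusted p = 0.0566), as did -0.17 with combi-2 (adjusted p = 0.42).

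ANLN, the scaffold of the contractile ring, read 11.20, 11.15 and 11.18 with NTC, 10.65, 10.73 and 10.57 with combi-1 and 10.83, 10.78 and 10.97 with combi-2. The NTC arrays of ANLN were close together, and both silenced groups lay wholly below them. ANLN fell by 0.52 with combi-1 (standard error 0.068, adjusted p = 0.00855), and its difference of -0.32 with combi-2 did not pass (adjusted p = 0.10). At the midbody, the kinase gene CIT read 7.93, 7.92 and 7.97 with NTC, 7.65, 7.64 and 7.44 with combi-1 and 7.80, 7.75 and 7.76 with combi-2, with no overlap of the groups. CIT fell by 0.36 with combi-1 (standard error 0.065, adjusted p = 0.0357) and stood at -0.17 with combi-2 (adjusted p = 0.322). CEP55, which recruits the ESCRT machinery for abscission in human cells, read 9.21, 9.20 and 9.17 with NTC, 8.76, 8.69 and 8.57 with combi-1 and 9.03, 9.02 and 9.23 with combi-2. Here combi-2 replicate 3 lay above every NTC array, so that CEP55, like ECT2, overlapped with NTC under combi-2. CEP55 fell by 0.51 with combi-1 (standard error 0.075, adjusted p = 0.015), and its difference with combi-2 was -0.10 (adjusted p = 0.619, 95% interval -0.27 to 0.07). Without combi-2 replicate 3 that difference was -0.17, and without combi-2 replicate 1 or 2 it was -0.07 or -0.06.

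**Figure D2:**
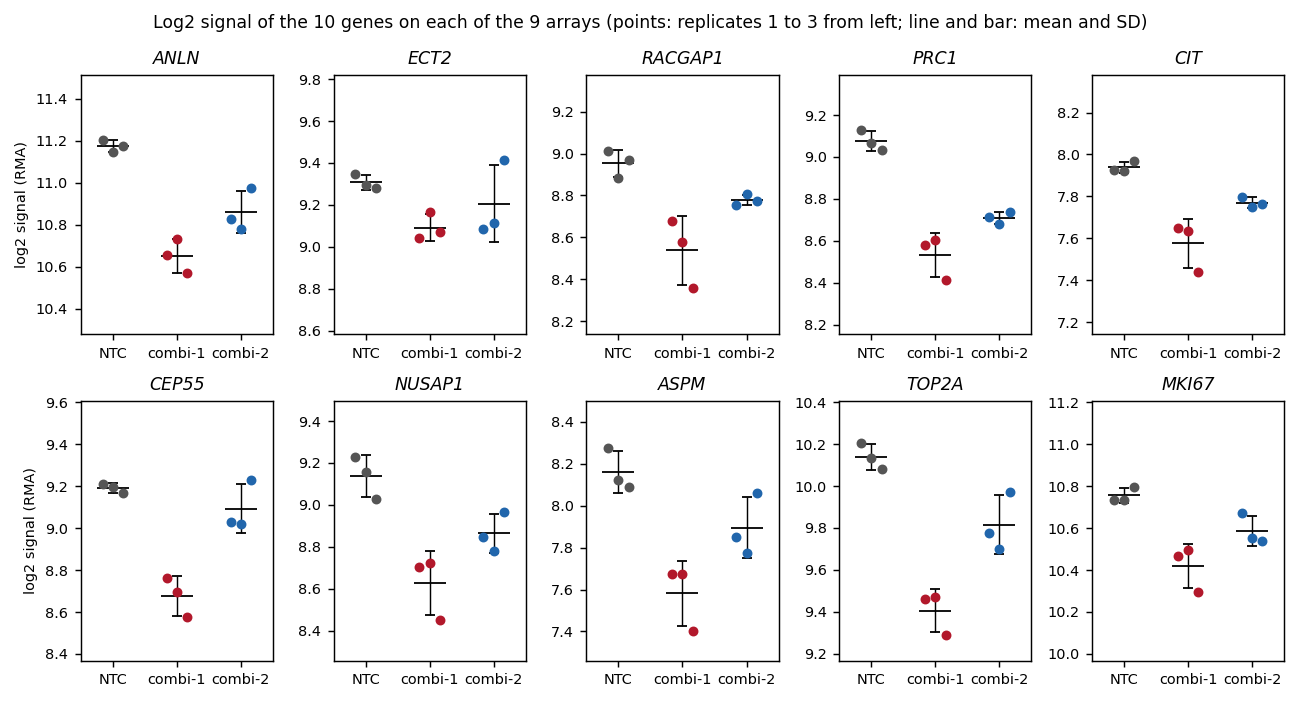
Log2 signal (RMA) of each gene on the 9 arrays, by group, with replicates 1 to 3 from left to right (points) and the mean and SD of 3 arrays (line and bar). Each panel spans the same range of log2 units around its own middle. Combi-1 lies below NTC in all 10 genes, and the combi-2 mean lies between the means of combi-1 and NTC. Combi-2 replicate 3 lies above every NTC array for ECT2 and CEP55, and the other combi-2 arrays of ECT2 lie within the combi-1 range.

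The number of genes called with combi-1 depended on single arrays. It was 2 without NTC replicate 1, 3 without NTC replicate 2, 4 without combi-1 replicate 1, 3 without combi-1 replicate 2, 3 without combi-1 replicate 3 and 4 without combi-2 replicate 1, and 5, 5 and 7 without NTC replicate 3, combi-2 replicate 2 or combi-2 replicate 3. PRC1 and TOP2A passed in all 9 of these fits and ANLN in 8, being lost without NTC replicate 1 (adjusted p = 0.051). CEP55 was lost without NTC replicate 1, NTC replicate 2, combi-1 replicate 2 or combi-1 replicate 3 (adjusted p 0.0557 to 0.0745). NUSAP1 remained called only without NTC replicate 3 or combi-2 replicate 3, ASPM only without combi-2 replicate 2 or combi-2 replicate 3, and CIT only without combi-2 replicate 3. Over those fits the log2 difference ran from -0.76 to -0.67 for TOP2A, from -0.58 to -0.48 for PRC1, from -0.57 to -0.42 for NUSAP1, from -0.62 to -0.49 for ASPM and from -0.25 to -0.19 for ECT2. It ran from -0.48 without combi-1 replicate 1 to -0.32 without combi-1 replicate 3 for RACGAP1. None of the 10 genes changed sign. The share of all genes called was not taken in these fits, so the counts stand without that background.

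With combi-2 the 10 genes were again below NTC in the mean, from 77.5% of its level for PRC1 to 93.4% for CEP55. Only PRC1 was called, 8 genes were lower without overlap, and the median log2 difference was -0.22. Of all genes tested with combi-2, 0.446% were called lower, 6.5% were lower without overlap and 45.2% had a mean below NTC. At an unadjusted p under 0.05, 7 of the 10 genes were below NTC, against 5.85% of all genes tested. The call of PRC1 depended on single arrays: it remained without combi-1 replicate 3 and was lost without each of the other 8 in turn (adjusted p up to 0.18), and without combi-2 replicate 3 ANLN was called in its place. Since both combinations are set against the same NTC arrays, their values are given side by side and not as independent results.

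For the mean of both combinations against NTC, 3 of the 10 genes fell. These were ANLN by 0.42 (standard error 0.059, adjusted p = 0.0125), PRC1 by 0.46 (0.056, adjusted p = 0.00596) and TOP2A by 0.53 (0.074, adjusted p = 0.0121), so that their mean levels were 74.7%, 72.9% and 69.3% of NTC. Of all genes tested, 0.823% were called lower here. The other 7 genes had differences from -0.42 for ASPM to -0.16 for ECT2, with adjusted p from 0.0551 for NUSAP1 to 0.35 for ECT2. The count was 1, with PRC1 alone, without NTC replicate 1 (adjusted p = 0.0742 for ANLN and 0.0738 for TOP2A) or without NTC replicate 2 (0.0642 and 0.0696), and 6 without combi-2 replicate 3.

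The direct comparison of the combinations gave no call among the 10 genes, although every one had a higher mean with combi-2 and 9 did so without overlap, all but ECT2. Of all genes tested, 0.0968% were called higher with combi-2 than with combi-1 and 8.59% were higher without overlap. A lower mean with combi-2 than with combi-1 was found for 50.8% of all genes. An unadjusted p under 0.05 with a higher level was reached by 9 of the 10 genes, against 5.09% of all genes tested. CEP55 had the highest difference at 0.42 (95% interval 0.25 to 0.59, adjusted p = 0.0889), or 133% of its combi-1 level, and TOP2A came next at 0.41 (0.21 to 0.60, adjusted p = 0.153). ASPM differed by 0.31 (adjusted p = 0.399), and the rest by 0.11 to 0.24. For ECT2 the interval ran from -0.09 to 0.32, and its difference of 0.11 was 0.01 without combi-2 replicate 3 and 0.17 without combi-2 replicate 1. Without combi-1 replicate 3 the differences of RACGAP1, PRC1, CIT, NUSAP1 and MKI67 were 0.15, 0.12, 0.13, 0.15 and 0.11, against 0.24, 0.18, 0.19, 0.24 and 0.17 on all arrays. The intervals do not show that the siRNA pairs act alike on any of the 10 genes, and the adjusted p-values do not show that they differ. The test of this comparison found no member in any fit that left out 1 array.

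**Figure D3:**
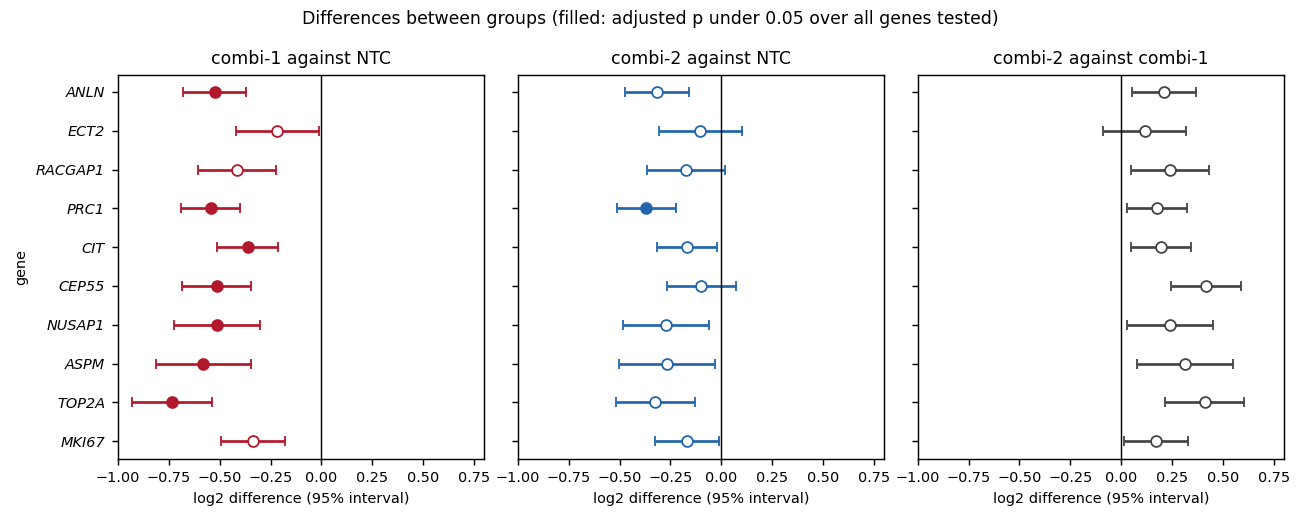
Log2 differences between groups for the 10 genes with 95% intervals of the moderated fit, filled where the adjusted p over all genes tested was under 0.05. Combi-1 against NTC has 7 filled points, combi-2 against NTC has 1 (PRC1) and combi-2 against combi-1 has none, with all 10 points above 0.

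The 10 genes varied together across the arrays. Centred per gene and averaged over the 10, the log2 signal was 0.28, 0.21 and 0.21 on the NTC arrays, -0.18, -0.17 and -0.36 on the combi-1 arrays and -0.02, -0.06 and 0.09 on the combi-2 arrays. Combi-1 replicate 3 was the lowest array of its group for 9 of the 10 genes, which was so for 36.1% of all genes. Combi-2 replicate 3 was the highest of its group for 7 of the 10 (34.7% of all genes), and NTC replicate 1 for 8 (36.4%). Whether these 3 arrays differ in growth or handling was not tested.

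Of 22311 genes in the upper 60% of NTC signal, the 5 whose centred profile was nearest to the mean of the 10 were CCNB1, BUB1B, KIF4A, MALT1 and DLGAP5. Likeness was the root mean square difference of log2 signal over 9 arrays, from 0.0356 for CCNB1 to 0.0527 for DLGAP5, where the members themselves were 0.0461 (NUSAP1) to 0.128 (ECT2) from that mean. CCNB1 is cyclin B1, the partner of CDK1 at mitotic entry. It read 10.22, 10.09 and 10.07 with NTC, 9.72, 9.66 and 9.53 with combi-1 and 9.84, 9.83 and 9.91 with combi-2, without overlap of the groups. BUB1B is the spindle checkpoint protein BUBR1, KIF4A the chromokinesin that works with PRC1, DLGAP5 a stabiliser of spindle fibres and MALT1 a paracaspase of NF-kB signalling in lymphocytes. Since the 5 were picked for their likeness on these same arrays, their differences restate that choice: with combi-1 they ran from -0.53 (BUB1B) to -0.41 (MALT1).

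Genes that act with the 10 were set beside them in 7 lists with 100 measured genes. In central spindle and RhoA control, 8 of 12 genes fell with combi-1 and none was called with combi-2, and all 12 were below NTC in both comparisons (median -0.49 and -0.27). The share below NTC over all genes tested was 45.3% with combi-1 and 45.2% with combi-2. The share called lower was 0.833% and 0.446%, and these shares stand beside each list below as well. KIF23, the kinesin subunit of centralspindlin and partner of RACGAP1, read 10.01, 9.99 and 9.93 with NTC, 9.21, 9.32 and 9.19 with combi-1 and 9.54, 9.50 and 9.75 with combi-2. It fell by 0.74 with combi-1 (standard error 0.075, adjusted p = 0.00228), and its difference with combi-2 was -0.38 (adjusted p = 0.0732). KIF20A, a motor that carries the chromosomal passenger complex to the midzone, also fell by 0.74 with combi-1 (adjusted p = 0.00857), and CDCA8, the borealin subunit of that complex, by 0.53 (adjusted p = 0.0096). The members ECT2 and RACGAP1 thus missed the threshold beside a called partner, but the difference between their values and that of KIF23 was not tested.

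The lists of the ring and the cutting machinery held few calls. Of all genes tested, 0.833% were called lower with combi-1 and 0.446% with combi-2. Few calls in lists of this size are therefore no result about these genes. Of 14 genes of the contractile ring and septins, 1 fell with combi-1 and none was called with combi-2 (median -0.03 and 0.04, against 0.02 and 0.02 for all genes). The one that fell was DIAPH3, a formin that nucleates actin filaments downstream of RhoA, by 0.70 (standard error 0.093, adjusted p = 0.00956), while its difference with combi-2 was -0.33 (adjusted p = 0.19). The call with combi-1 was lost without NTC replicate 1 (adjusted p = 0.0517) or NTC replicate 2 (0.0537). DIAPH3 read 8.19, 8.11 and 7.95 with NTC, 7.43, 7.46 and 7.25 with combi-1 and 7.70, 7.65 and 7.89 with combi-2. The RhoA-dependent kinases ROCK1 and ROCK2 stood at -0.40 and -0.26 with combi-1 (adjusted p = 0.144 and 0.263), and SEPTIN6, a filament-forming GTPase, at 0.17 with combi-2 (adjusted p = 0.331). None of the 17 measured genes of abscission and ESCRT was called in either comparison with NTC (median -0.03 and 0.01). Nearest to the threshold there was CHMP7, an ESCRT subunit of the nuclear envelope, at -0.28 with combi-2 (adjusted p = 0.0597), followed by TSG101, the ESCRT-I subunit that CEP55 recruits, at -0.35 (adjusted p = 0.114). With combi-1, CHMP5 stood at 0.17 (adjusted p = 0.207), the abscission checkpoint gene ZFYVE19 at 0.12 (adjusted p = 0.328) and CHMP4B, a subunit of the ESCRT-III filament, at 0.16 (adjusted p = 0.332).

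In the spindle pole and spindle microtubule list, 6 of 14 measured genes fell with combi-1 and 1 with combi-2 (median -0.38 and -0.19). TPX2, the activator of Aurora A on the spindle, fell with both, by 0.52 (standard error 0.059, adjusted p = 0.00383) and 0.34 (adjusted p = 0.045). Its call with combi-2 was lost in each of the 9 fits that left out 1 array, where the adjusted p was 0.0555 without combi-1 replicate 3 and up to 0.164 without combi-2 replicate 2. SPAG5 (astrin), which anchors the spindle poles, fell by 0.62 with combi-1 (adjusted p = 0.00642) and CKAP5, a microtubule polymerase, by 0.35 (adjusted p = 0.0159). Of 12 genes of mitotic chromosome structure, 3 fell with combi-1 and none with combi-2 (median -0.29 and -0.10). These were CDCA2, which brings a phosphatase to chromatin at mitotic exit, by 0.61 (adjusted p = 0.0104), and the condensin I subunits NCAPH by 0.41 (adjusted p = 0.0171) and NCAPD2 by 0.53 (adjusted p = 0.0337).

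The regulators of late cell cycle genes, which include the DREAM and MuvB subunits that read the CHR, gave 1 call with combi-1 among 14 genes (median -0.19) and none with combi-2 (median -0.06). That gene was RBL2, the pocket protein p130 of DREAM, with 7.61, 7.56 and 7.53 on NTC arrays, 7.02, 7.11 and 6.95 with combi-1 and 7.43, 7.49 and 7.65 with combi-2. RBL2 fell by 0.54 with combi-1 (standard error 0.073, adjusted p = 0.0109), stood at -0.04 with combi-2 (adjusted p = 0.859), and was higher by 0.50 with combi-2 than with combi-1 (adjusted p = 0.0389), a call that was lost in each of the 9 fits that left out 1 array (adjusted p 0.0633 without combi-2 replicate 3, up to 0.19 without combi-1 replicate 3). FOXM1, the activator that joins MuvB in G2, was lower on all combi-1 arrays (9.65, 9.58 and 9.52) than on the NTC arrays (9.90, 9.87 and 9.94), but its difference of -0.32 missed the threshold (adjusted p = 0.0661). The call of RBL2 with combi-1 was lost without NTC replicate 1, NTC replicate 2, combi-1 replicate 1 or combi-1 replicate 3 (adjusted p 0.0556 to 0.0599). RBL1, the related pocket protein p107, stood at -0.27 with combi-1 (adjusted p = 0.158). With combi-2 the MuvB subunit LIN52 stood at -0.38 (adjusted p = 0.123) and E2F8, a repressor of E2F targets, at 0.26 (adjusted p = 0.173).

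None of 17 genes of the G1/S transition and replication was called with either combination in the fit on all arrays, although all 17 were below NTC with combi-1 (median -0.13, and -0.04 with combi-2). Below NTC with combi-1 were 45.3% of all genes tested, and 0.833% were called lower, so a lack of calls in a list of this size is near that share. GINS2, a subunit of the replicative helicase, stood at -0.23 with combi-1 (adjusted p = 0.0726), MCM5, another, at -0.41 (adjusted p = 0.0788) and TYMS, thymidylate synthase, at -0.28 (adjusted p = 0.0917). With combi-2 the histone mRNA-binding gene SLBP stood at -0.27 (adjusted p = 0.066) and the helicase subunit gene CDC45 at -0.33 (adjusted p = 0.0905). The counts were not 0 under every setting: 2 genes were called with combi-1 without combi-2 replicate 3, and with protein-coding genes only 4 were called with combi-1 and 2 with combi-2. GINS2 and MCM5 were each called with combi-1 in 6 of 20 alternatives. MCM5 stood at 0.03 with combi-2 (adjusted p = 0.921), and its difference of 0.44 between the combinations did not pass (adjusted p = 0.153). Counts with combi-1 over the 9 fits that left out 1 array ran from 1 (without NTC replicate 1) to 8 (without combi-2 replicate 3) for the central spindle list and were 2 to 5 there without any other array. They ran from 2 (without NTC replicates 1 or 2 or combi-1 replicates 1 or 3) to 8 (without combi-2 replicate 3) for the spindle pole list. For the chromosome list they ran from 0 (without NTC replicate 1) to 6 (without combi-2 replicate 3). KIF23, TPX2 and SPAG5 passed with combi-1 in all 9 of these fits, KIF20A and CDCA2 in 8, CDCA8 in 7, CKAP5 and NCAPH in 4, and NCAPD2 in 2.

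**Figure D4:**
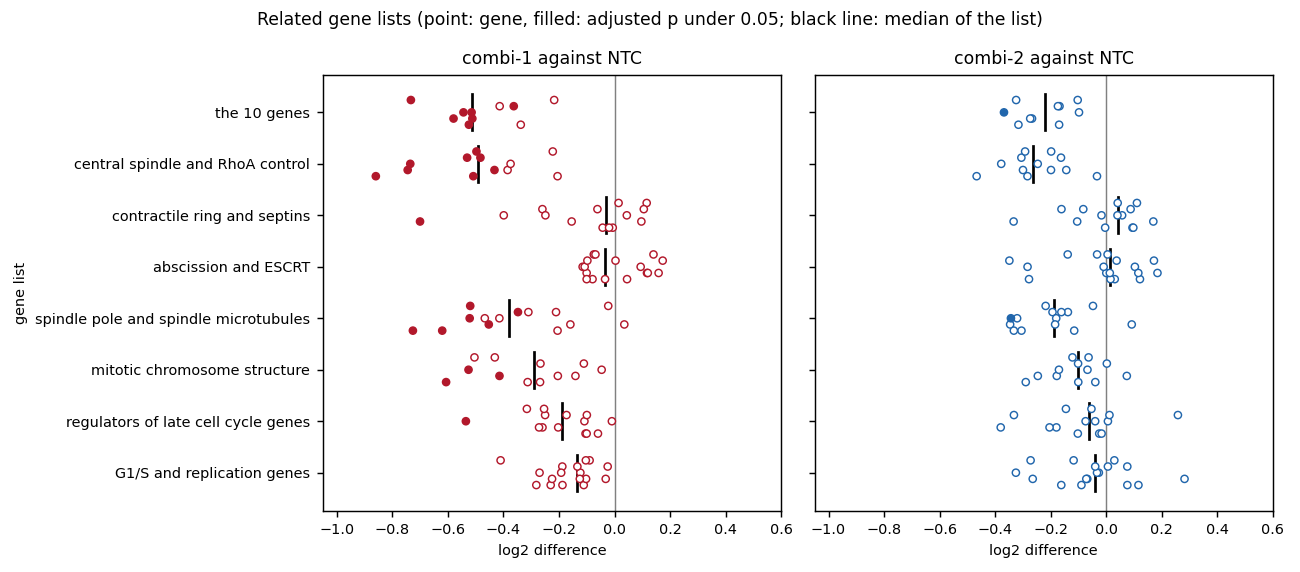
Log2 differences of the 10 genes and of the 100 measured genes of 7 related lists, for each combination against NTC (1 point per gene, filled where the adjusted p over all genes tested was under 0.05, black line at the median). With combi-1 the medians run from -0.51 for the 10 genes and -0.49 for the central spindle list to -0.03 for the ring and the abscission lists.

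The CHR was not spread evenly over these lists. A match lay in the promoter of 7 of 11 genes with an entry in the central spindle list (63.6%), 8 of 13 in the spindle pole list (61.5%) and 7 of 10 in the chromosome list (70%). It lay in 4 of 12 of the late regulators (33.3%), 1 of 13 of the ring and septin genes (7.69%), 1 of 14 of the abscission genes (7.14%) and 0 of 14 of the G1/S genes. Counted by promoter, a match lay in 15.2% of all promoters and 12.4% of those of protein-coding genes. The list shares instead count a gene if any of its starts had a match. Starts per gene differed between lists, with 32 promoters for the 13 ring and septin genes and 13 for the 13 spindle pole genes. These shares are a description with no test.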

How the data were processed

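Clariom D arrays measured total RNA of HUCCT-1 cells, 3 arrays per group and 9 in all. The authors deposited log2 signals, background-corrected and normalized by RMA over custom probe sets (CDF version 22, 1 per Entrez gene), and RMA draws each array to a common distribution, so changes are relative to the other genes. Of 39334 probe sets, 37201 had 1 named gene in the platform annotation and were tested, 2133 did not and were left out. Contrasts were fitted with limma 3.58.1 in R 4.3.3 (3 group means, prior degrees of freedom 2.56) and called at an adjusted p under 0.05. The number of arrays limits the precision. The 10 genes, the 7 lists and the named genes (all members, YAP1 and WWTR1, the 3 genes per list with the smallest p for combi-1 and the 2 for combi-2, and the 5 nearest profiles) were chosen with earlier results of these data known. The fit was tested on simulated data with independent noise for each gene and array. Such data lack shifts that genes share on an array, so they do not bear on calls that depend on single arrays. Alternatives were other normalizations, filters, variance models, weights, a replicate block, gene sets, rounding to 2 decimals, a log2 difference of at least 0.5 and leaving out each array. Promoters were searched in Python 3.11.15, with gene names from RefSeq (37154 matched by Entrez identifier).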

Additional observations from a re-analysis of the deposited data

How the results depend on the processing

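Every one of the 10 genes kept its sign in all 4 comparisons under all alternatives run. With combi-1 the count of 7 genes became 4 with an ordinary linear model or only the arrays compared, 2 (PRC1 and TOP2A) with a replicate block, and 2 to 7 when 1 array was left out. It was 9 without the 40% dimmest probe sets, with a trend and robust fit, with array weights or with protein-coding genes only, which added RACGAP1 and MKI67. With combi-2 the count of 1 became 2 without the dimmest probe sets, 3 with protein-coding genes only, 0 with an ordinary linear model, the replicate block, only the arrays compared or a log2 difference of at least 0.5, and 0 to 1 when 1 array was left out. For the mean of both the count of 3 became 9 without the dimmest probe sets or with protein-coding genes only, 8 with a trend and robust fit, 6 with array weights, 1 with the replicate block or a log2 difference of at least 0.5, and 1 to 6 when 1 array was left out. Between the combinations the count of 0 became 1 (CEP55) without the dimmest probe sets or with a trend and robust fit and 2 (CEP55 and TOP2A) with protein-coding genes only. The settings with fewer genes adjust p over fewer tests and also estimate the variances anew. The shares of all genes called that are given above belong to the main fit, and no such share was taken under the alternatives. Whether the counts moved with a general gain or loss of calls, or for another cause, was not tested for any setting. Replicate numbers gave no sign of pairing: 0 of 9 same-numbered pairs had a correlation of deviations over 0.1, and 0 of 9 arrays were nearest to their own number. This check over all genes cannot show that the arrays were not paired. Over all alternatives the calls with combi-1 ran from 1 to 11 in the central spindle list, 2 to 10 in the spindle pole list, 0 to 8 in the chromosome list, 0 to 4 in the G1/S list, 0 to 2 in the ring list and the late regulators and 0 to 0 in the abscission list, and with combi-2 from 0 to 4 in the spindle pole list and 0 to at most 2 in the others. Of the list genes not called, some changed sign. Over the fits that left out 1 array, the difference with combi-2 ran from -0.1293 to 0.05035 for ROCK1, from -0.02814 to 0.0617 for CHMP4B, from -0.1051 to 0.00868 for RBL2 and from -0.04597 to 0.1376 for MCM5. Between the combinations it ran from -0.02441 to 0.02051 for ZFYVE19, which was 0.008055 with array weights, and from -0.01302 to 0.1178 for RBL1.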
